A study of Rattus with 18 samples.

Results

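Cpt1a, Cd36 and Slc2a1 are 3 genes that bring fuel into the cell or the mitochondrion, and all 3 stood in the authors' deposited list of genes for iECM against control rat hearts at day 3. They were picked by symbol from that list, with its values in view, and are 3 of the 374 genes that the list's q-values imply were tested. Cpt1a and Cd36 had positive log2 fold changes of iECM over control and Slc2a1 a negative one, and Cpt1a alone had a q-value under 0.05. The counts lack gene names. In edgeR, by a test other than the authors', 0 of 380 unfiltered day 3 probes had an adjusted p under 0.05. Because the choice used this contrast, the values below describe the 3 genes and test nothing, and higher or lower refers to the sign of a deposited value.

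The hearts came from Sprague-Dawley rats, whose left ventricular free wall was taken after a 35 min infarction. By the agent and time point labels, 5 samples were iECM at day 3, 4 were control at day 3, 5 were iECM at day 1 and 4 were control at day 1. iECM is an infusible extracellular matrix, and the stated aim covers metabolic as well as fibrotic and inflammatory pathways. The treatment text of every sample, control ones included, names an infusion of iECM, so the groups rest on the agent label alone and the sources used here do not say what control hearts received. RNA was counted by NanoString hybridization with an immunology panel, which reads barcoded probes directly. The labels do not say that each sample is a separate animal, and they give no age.

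A healthy adult heart draws most of its energy from long-chain fatty acids. CD36, a scavenger receptor at the cell surface, takes up long-chain fatty acids, and CPT1A, in the outer mitochondrial membrane, joins them to carnitine so that they can enter the matrix for beta-oxidation. The heart's main carnitine palmitoyltransferase is CPT1B, and CPT1A is the liver form, present at a lower level in heart muscle and in many other cells. GLUT1, the product of Slc2a1, is the glucose transporter that works without insulin, and it is known to rise with hypoxia and in activated macrophages. CD36 is also abundant on capillary endothelium and on macrophages, so in whole infarct tissue none of the 3 genes belongs to a single cell type.

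The value table gives counts for 394 numbered rows and no gene names, so no row was assigned to Cpt1a, Cd36 or Slc2a1, and their levels heart by heart are not given. Summed gene counts ranged from 1101407 to 1664632 in day 3 iECM hearts and from 1083285 to 1687688 in day 3 control hearts. On the first principal component, which held 60.6% of the variance and set the days apart, day 3 hearts lay between 2.39 and 9.98 and day 1 hearts between -8.57 and -5.87. The day 3 hearts nearest to day 1 were iECM replicate 1, at 2.39, and control replicate 2, at 4.20. Dixon's limit for a sample standing apart within its group was passed in 0 of 12 tests, on the summed gene count, the first component and the positive-control sum.

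Cpt1a had a log2 fold change of 0.52 for iECM over control at day 3 in the authors' deposited table, which is a ratio of 1.43. It ranked 1 of 23 by p-value there, with lr = 14.3, p = 1.57e-04 and q = 0.0437 in the authors' deposited table. The lr score is a likelihood ratio statistic whose chi-square tail on 1 degree of freedom gives back the deposited p, so the fold change divided by the square root of lr gives an approximate error. For Cpt1a that error was 0.14, and the approximate 95% interval ran from 0.25 to 0.79 on the log2 scale. By size Cpt1a was in place 10 of the 22 listed genes other than Rnase1, whose deposited value of 25.9 is too large to be a size. Counted from the smallest, its error was in place 6 of those 22. Pdgfb, Lrg1, Junb, Smad6 and Il1b had smaller errors, with smaller fold changes of 0.20, 0.34, -0.34, 0.30 and -0.38. The error is computed from lr, which also sets the p-value, so it gives no separate account of the rank of Cpt1a.

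Cd36 had a log2 fold change of 0.45 in the authors' deposited table, a ratio of 1.36, with lr = 5.04, p = 0.0248 and q = 0.615. The error implied by lr was 0.20 and the approximate interval ran from 0.06 to 0.83. Cd36 was 0.07 below Cpt1a on the log2 scale, a difference that was not tested, and the interval of Cpt1a lay wholly inside that of Cd36. In order of size the pair stood next to each other, at places 7 and 8 among the 14 genes with positive values other than Rnase1.

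Slc2a1 was the single one of the 3 with a negative value in the authors' deposited table, at -0.39, a ratio of 0.765. Its lr was 4.15, its p-value 0.0416 and its q-value 0.646 in the authors' deposited table, where it ranked 19 of 23 by p-value. The error implied by lr was 0.19 and the approximate interval, from -0.76 to -0.01, came close to 0. That interval did not overlap those of Cpt1a and Cd36, which was fixed by choosing listed genes of opposite sign. Among the 8 listed genes with negative values Slc2a1 was in place 5 by size.

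**Figure D1:**
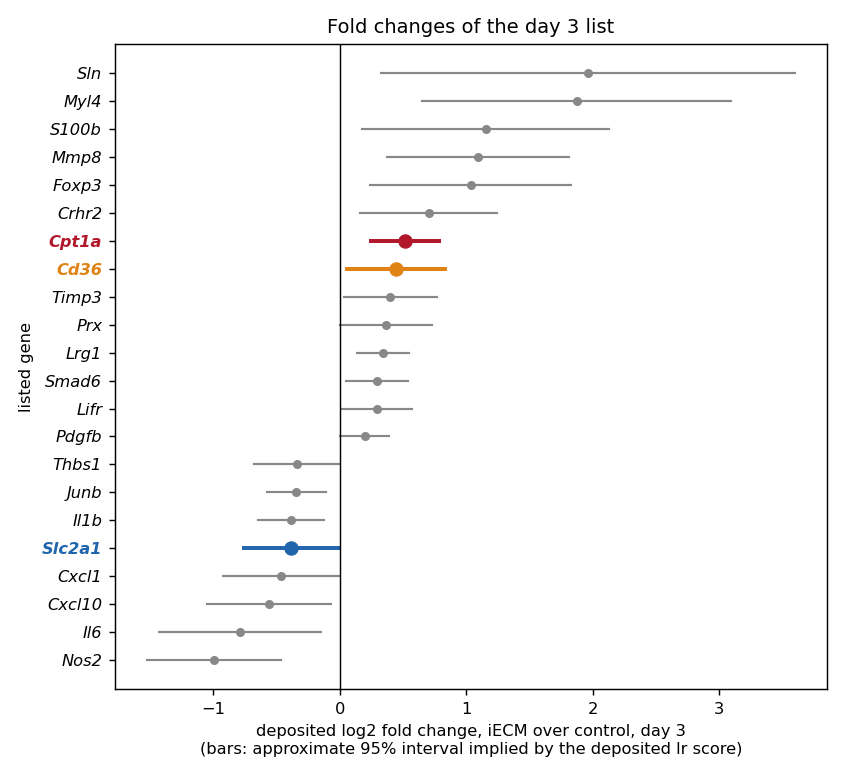
Deposited log2 fold change of iECM over control at day 3 (x axis) for 22 listed genes (y axis, Rnase1 left out). Points are the deposited values and bars the approximate 95% interval implied by the deposited lr score, with Cpt1a (0.52), Cd36 (0.45) and Slc2a1 (-0.39) in colour; all 3 lie between Sln (1.96) and Nos2 (-0.99), the ends of the order.

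The list held 23 of 374 genes, or 6.15%, of which 15 (4.01%) were higher and 8 (2.14%) lower with iECM, and 2 of 374 (0.535%) had a q under 0.05. Of the 3 genes, only Cpt1a was among those 2, beside Nos2, the inducible nitric oxide synthase, at -0.99 and the same q of 0.0437. The gene just outside that threshold was Rnase1 with q = 0.0825 in the authors' deposited table, and Cd36 and Slc2a1 lay far outside it. At the end of the authors' deposited table stood Thbs1, a matrix glycoprotein that binds CD36, at -0.34 with p = 0.0486. Since the 3 were chosen for being listed, nothing is read from these counts about them.

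The direction and base of the fold change are not stated in the headers and were read from the counts of the unnamed rows. Each deposited pair of fold change and lr score was set beside its nearest row, and the mean distance was 0.310 when the ratio was iECM over control on base 2 and 0.302 on the natural base, against 0.396 and 0.437 when it was turned round. With a model that has a background term the distances were 0.134 and 0.211 for iECM over control, against 0.278 and 0.332. iECM over control was nearer in both, while base 2 was nearer only in the second. For the day 1 list, base 2 was nearer than the natural base in both, at 0.656 against 0.722 and 0.151 against 0.277. The signs above rest on iECM over control. The ratios and every comparison of size with the probes below rest on base 2.

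The day 1 list of the authors' deposited tables held 0 of the 3 genes. It named 11 of 374 genes (2.94%), the largest p-value among them being 0.0429, and 1 of 374 (0.267%) had a q under 0.05. Fold changes of Cpt1a, Cd36 and Slc2a1 at day 1 are therefore not given, and whether their response differed between the days was not tested. Over the 371 unnamed probes at day 1, edgeR's quasi-likelihood test made 0 calls (0%), as did DESeq2 and limma, and 3 probes had an unadjusted p under 0.05 in edgeR. That number was 19 without control replicate 2, 9 without iECM replicate 2, 8 without iECM replicate 4, 6 without control replicate 3 and 5 without iECM replicate 3 or 5, while positive-control scaling gave 0.

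The day 3 counts give the spread against which the 3 values can be set. At day 3 edgeR's quasi-likelihood test again made 0 calls over 371 probes (0%), and so did DESeq2 and limma. In the edgeR test 11 probes (2.96%) had an unadjusted p under 0.05, and this number hung on single hearts. It was 25 without iECM replicate 4, 3 without iECM replicate 1 or 5, and 7 without control replicate 2, and positive-control scaling gave 3. The smallest Benjamini-Hochberg adjusted p in edgeR was 0.901, and without the filter on low counts 0 of 380 probes were called. Whichever row belongs to Cpt1a, it thus did not reach an adjusted p under 0.05 in this test. The deposited q of 0.0437 comes from another test, the authors' likelihood ratio, so the 0 calls are no check of it. Calls are not given here for the model with a background term, whose values lie nearer to the deposited ones. Half-widths of the 95% interval had a median of 0.39 on the log2 scale, beside deposited sizes of 0.52 for Cpt1a, 0.45 for Cd36 and 0.39 for Slc2a1. The standard error had a median of 0.18, and 29.4% of probes had one no larger than the error implied for Cpt1a, 57.1% for Cd36 and 54.4% for Slc2a1. The errors compared come from different tests, the authors' likelihood ratio and edgeR's quasi-likelihood over all 18 samples. The 3 genes were also chosen from a list of small p-values.

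The size of each deposited value was then set against all probes. In the edgeR fit, 10 of 371 unnamed probes (2.7%, Wilson 95% interval 1.47% to 4.89%) were at least 0.52 from 0 in either direction, and 6 of them were higher with iECM. For Cd36 the count was 20 of 371 (5.39%, interval 3.52% to 8.18%), 12 of them higher. For Slc2a1 it was 30 of 371 (8.09%, interval 5.72% to 11.3%), 15 of them lower. If the deposited values were natural logs, they would lie 0.75, 0.64 and 0.56 from 0 on the log2 scale, and 4 (1.08%), 5 (1.35%) and 8 (2.16%) of the 371 probes would be as far out. The median fold change over all probes was -0.04. These intervals cover counting error only, and the rows of the 3 genes are somewhere among the probes.

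The shares depend on how fold changes were estimated. In the model with a background term, whose values lie nearer to the deposited ones, 37 of 374 probes (9.89%) were as far out as Cpt1a, 44 (11.8%) as far as Cd36 and 57 (15.2%) as far as Slc2a1. Each of these counts includes 9 fits beyond 10 on the log2 scale, which are no more a size than the value of Rnase1, and without them 28 (7.49%), 35 (9.36%) and 48 (12.8%) remain. Without iECM day 3 replicate 4 the edgeR shares were 6.2%, 9.7% and 13.5%, and without control day 3 replicate 1 those of Cpt1a and Cd36 were 5.38% and 8.87%. Without control day 3 replicate 3 the share for Slc2a1 was 12.4%. Leaving out both day 3 hearts nearest to day 1 gave 2.67% for Cpt1a, 4.27% for Cd36 and 5.07% for Slc2a1.

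**Figure D2:**
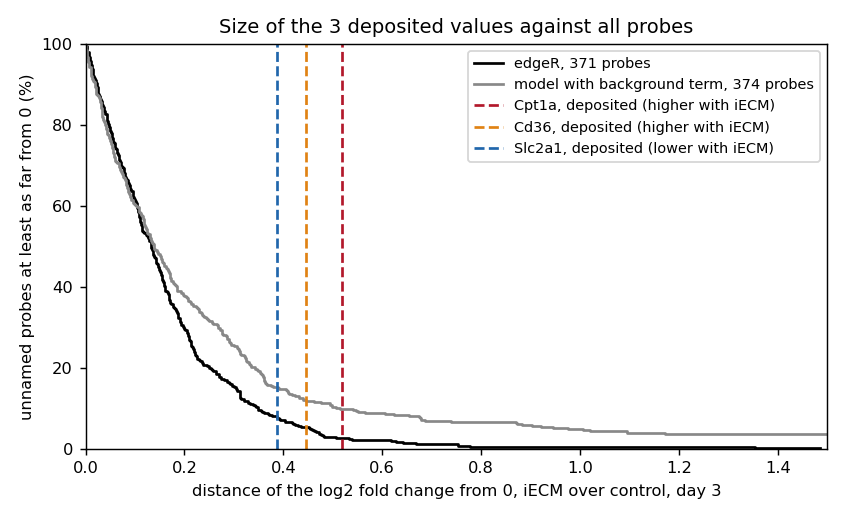
Share of unnamed probes (y axis, percent) whose day 3 log2 fold change of iECM over control is at least as far from 0 as the value on the x axis, in the edgeR fit of 371 probes and in a model with a background term over 374. Dashed lines mark the deposited Cpt1a, Cd36 and Slc2a1 values; at the Cpt1a line the curves stand at 2.7% and 9.89%.

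Lists of related genes were then searched in both deposited lists. Of 29 genes of fatty acid uptake and oxidation, the authors' deposited table for day 3 held Cpt1a and Cd36 and no others. Of 21 genes of glucose uptake and glycolysis it held Slc2a1 alone, and of 20 genes of insulin and AMPK signalling it held 0. The hypoxia list of 11 genes had Slc2a1 at day 3 and Vegfa, an endothelial growth factor, at day 1, where the authors' deposited table gave it 0.25. Which other members of these lists the panel measures is not known from the files, so the lists show only what was named and not how the pathways moved.

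Other listed genes mark cell types that the infarct holds. Of 9 endothelial genes the authors' deposited table for day 3 held Cd36 and Prx, and Prx stood at 0.37. Of 11 macrophage and monocyte genes it held Cd36, Nos2 at -0.99 and Il1b, the cytokine interleukin-1 beta, at -0.38. Of 10 cardiomyocyte genes the authors' deposited table held Sln, a small protein of the sarcoplasmic reticulum, at 1.96 and the myosin light chain gene Myl4 at 1.87, and no others. The errors implied for Sln (0.84) and Myl4 (0.62) were the largest among the listed genes other than Rnase1. Of 7 neutrophil genes the authors' deposited table held Mmp8, a collagenase, at 1.09 and Lrg1 at 0.34, and of 6 T cell genes Foxp3, the factor of regulatory T cells, at 1.04. Of 5 Schwann cell genes it held S100b at 1.16 and again Prx, which is thus on 2 lists, of 6 fibroblast genes Thbs1 at -0.34, and of 6 smooth muscle and pericyte genes 0. Immune cell genes in the authors' deposited table thus had values of both signs, and apart from Nos2 all these listed genes had a q of 0.05 or more. Fewer cells of a type and less RNA per cell cannot be told apart in whole tissue, and the part of cell composition in the 3 values was not tested.

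The authors also deposited KEGG pathways for the day 3 list, of which 9 of 38 held at least 1 of the 3 genes. Insulin resistance held Cpt1a, Cd36, Slc2a1 and Il6, the cytokine interleukin-6, and its adjusted p in the authors' deposited table was 9.23e-04. Adipocytokine signaling, which covers leptin and adiponectin, consisted of the 3 genes alone (adjusted p = 0.00298 in the authors' deposited table). In neither pathway did the genes share a sign: insulin resistance had 2 higher (Cpt1a and Cd36) and 2 lower (Slc2a1 and Il6).

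The PPAR signaling pathway, through which fatty acids switch on genes of their own use, held Cpt1a and Cd36 alone (adjusted p = 0.0356 in the authors' deposited table). It was the single one of the 38 pathways whose listed genes were all higher with iECM, whereas in 22 they were all lower. Of the 38 pathways, 31 held Il1b or Il6, both lower with iECM, and so could not be all higher. The glucagon signaling pathway held Cpt1a and Slc2a1, of opposite sign, at 0.0433 in the authors' deposited table. HIF-1 signaling, the transcriptional response to low oxygen, held Slc2a1 with Il6 at -0.79 and Nos2 at -0.99, all lower with iECM, at 0.00692 in the authors' deposited table. Renal cell carcinoma held Slc2a1 with Pdgfb, a platelet-derived growth factor, at 0.0282.

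Cd36 without Cpt1a or Slc2a1 was in 3 further pathways of the authors' deposited table. Malaria held it with Il1b, Il6 and Thbs1, at an adjusted p of 2.24e-04. Hematopoietic cell lineage held it with Il1b and Il6 (0.00503) and ECM-receptor interaction with Thbs1 (0.0383). In these 3 pathways every other listed gene was lower with iECM while Cd36 was higher. The authors' deposited table set 17 annotated genes against a background of 9373 genes, while the panel offered 374. Of the 9 pathways, 4 held no gene with a q under 0.05, beside 28 of all 38. Cpt1a has such a q, so the 4 pathways that hold it could not be among them, and nothing is read from this count.

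**Figure D3:**
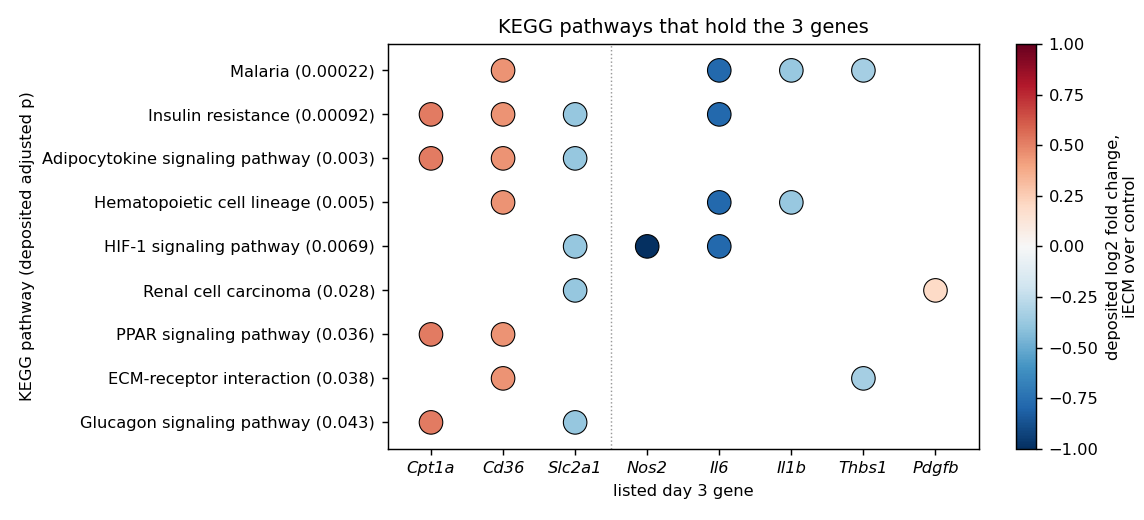
The 9 deposited KEGG pathways that hold Cpt1a, Cd36 or Slc2a1 (rows, with the deposited adjusted p) and the listed genes in each (columns). Dots are coloured by the deposited log2 fold change of iECM over control at day 3; PPAR signaling is the row with positive dots only, and HIF-1 signaling the row with negative dots only.

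Among 707 deposited gene ontology terms for biological processes, 218 (30.8%) held at least 1 of the 3 genes. Their p-values set the 23 listed genes against a background of 17962 genes, while the panel offered 374. Cd36 was in 186 (26.3%), Cpt1a in 31 (4.38%) and Slc2a1 in 20 (2.83%). No term held all 3, and none held Cpt1a with Slc2a1. Cpt1a and Cd36 shared 13 terms, which is 41.9% of those of Cpt1a and 6.99% of those of Cd36. Cd36 and Slc2a1 shared 6, or 3.23% of those of Cd36 and 30% of those of Slc2a1.

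Of the 13 terms shared by Cpt1a and Cd36, 7 named no other listed gene. These included fatty acid oxidation (adjusted p = 0.0271 in the authors' deposited table), long-chain fatty acid metabolic process (0.0268), triglyceride metabolic process (0.0274) and eating behavior (0.011). The lowest adjusted p of the 13 was 0.00116 in the authors' deposited table, for positive regulation of lipid metabolic process, where Il1b and Pdgfb stood beside them. Feeding behavior added Crhr2, a receptor of the corticotropin-releasing hormone family, at 0.70, and its 3 listed genes were all higher with iECM.

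The 6 terms shared by Cd36 and Slc2a1 were led by response to mechanical stimulus, which headed the whole of the authors' deposited table with an adjusted p of 5.67e-09. It held 10 genes, of which 3 were higher (Cd36, Pdgfb and Timp3) and 7 lower with iECM. Response to insulin, at 0.00118 in the authors' deposited table, held Cd36, Slc2a1, Il1b, Il6 and Pdgfb. Organic anion transport (0.00325) held Cd36 as its single gene with a positive value.

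Terms with no other listed gene numbered 21 for Cd36, 2 for Cpt1a and 1 for Slc2a1. Those of Cd36 included cholesterol import (adjusted p = 0.0475 in the authors' deposited table) and cellular response to oxidised low-density lipoprotein particle stimulus (0.0412). Cpt1a stood by itself in carnitine metabolic process (adjusted p = 0.0462 in the authors' deposited table) and positive regulation of fatty acid beta-oxidation (0.0412), terms with 13 and 10 background genes. The terms of Cpt1a with the lowest adjusted p concerned hormone secretion, such as peptide hormone secretion (8.47e-04 in the authors' deposited table), with Crhr2 higher and Il1b, Il6 and Nos2 lower. Slc2a1 was in glucose transmembrane transport (0.0391), where the other listed gene was Il1b, and in response to hypoxia (0.00247), with Il1b, Nos2, Pdgfb and S100b.

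Cd36 also stood in terms on inflammation, as neither Cpt1a nor Slc2a1 did. Its lowest adjusted p outside the shared terms was 6.59e-08 in the authors' deposited table, for positive regulation of reactive oxygen species metabolic process, with Cxcl1, Il1b, Il6, Mmp8, Pdgfb and Thbs1. Interleukin-6 production followed, at 7.81e-07 in the authors' deposited table. By words in the term names, chosen after the terms were seen, 51 of its 186 terms (27.4%) named inflammation and 30 (16.1%) named a lipid or sugar. For Cpt1a the counts were 0 and 18 of 31 (58.1%), and for Slc2a1 0 and 5 of 20 (25%), beside 144 and 58 of all 707 terms (20.4% and 8.2%).

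**Figure D4:**
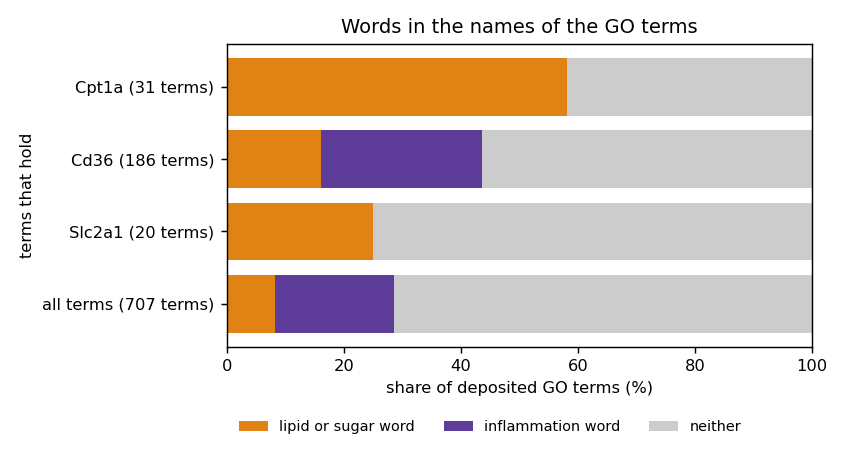
Share of the deposited gene ontology terms (x axis, percent) that name a lipid or sugar, inflammation or neither, for the terms of Cpt1a, Cd36 and Slc2a1 and for all 707 (y axis). The lipid or sugar share is 58.1% for Cpt1a, 16.1% for Cd36 and 25% for Slc2a1, and only Cd36 among the 3 has inflammation terms (27.4%).

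Of all 707 terms, 356 held Il1b. Of the 58 terms that name a lipid or sugar, 42 (72.4%) held at least 1 of the 3 genes and 36 held Il1b. Il1b was in 9 of the 18 such terms of Cpt1a, 12 of the 30 of Cd36 and 5 of the 5 of Slc2a1. The sugar transport terms in the authors' deposited table therefore each consisted of 2 genes, Slc2a1 and Il1b, both lower with iECM. Every listed gene was higher in 11 of the 31 terms of Cpt1a and in 38 of the 186 of Cd36, and every one was lower in 8 of the 20 of Slc2a1. A term cannot be wholly of the sign that its own member lacks, so these counts are not comparable with those over all terms.

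Likeness to other listed genes was taken as the Jaccard index of gene ontology terms (shared terms over the terms of either gene). Nearest to Cpt1a were Nos2 (0.0796), Crhr2 (0.0702) and Cd36 (0.0637). Nearest to Cd36 were Thbs1 (0.204, 62 shared terms), Il1b (0.196) and Il6 (0.175). Nearest to Slc2a1 were Junb, a transcription factor subunit (0.0938), Nos2 (0.0673) and S100b (0.0556). On KEGG pathways the order changed: Cpt1a and Slc2a1 were nearest to each other (0.5), and Cd36 was nearest to Cpt1a (0.429). The index describes annotation in the deposited tables and not levels in the hearts.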

How the data were processed

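Per the labels' protocols, RNA of 18 samples was hybridized with NanoString probes. The authors deposited raw counts for 394 numbered rows, read as raw because they are whole and their totals differ. Rows 375 to 380 and 381 to 388 were read from their values as positive and negative controls, leaving 380 rows taken as gene probes. The last 6 rows were kept among these in edgeR, although the model with a background term scales on them and covers 374. That is also the number of genes the q-values imply, so the last 6 rows may not be among the genes the authors tested. Per the file headers, the authors' deposited tables give a log fold change (read as log2), an lr score, a p-value, a q-value and, per term, the number of listed genes as another kind of count; the sources used here give neither tool nor filters. In the KEGG table, 15 of 15 Entrez identifiers were matched to symbols through RefSeq's GRCr8 gene table.

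edgeR 4.0.16 (filterByExpr, minimum count 10, 371 probes kept, TMM scaling, quasi-likelihood test, 4 group means, 14 residual degrees of freedom) was fitted to all samples, with Benjamini-Hochberg adjustment and a threshold of 0.05. DESeq2 1.42.0 and limma 3.58.1 were alternatives, and scripts were tested on simulated data. The model with a background term fits negative binomial counts with the mean negative-control count added and scales on the last 6 rows. Replicates were numbered in accession order, which pairs none of them. The 3 genes, the gene lists and the rule for named genes (the 3 genes, their pathways, up to 6 ontology terms for each gene alone, 3 nearest genes) were chosen with earlier results of these data known; carnitine, beta-oxidation, cholesterol, lipoprotein and glucose transport terms were added after their values were seen. Promoter motifs were not analysed here.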

Additional observations from a re-analysis of the deposited data

How the results depend on the processing

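The deposited values cannot be recomputed from unnamed rows, so only the values taken from the counts were varied. No paired analysis was possible because replicate numbers are absent from the labels. The count of 0 called probes at day 3 stayed 0 in 17 alternatives and at day 1 in 15, including each sample of that day left out. Samples of the other day were not left out. With 1 day 3 sample left out, the share of probes as far from 0 as Cpt1a ranged from 2.43% to 6.2%, as Cd36 from 3.77% to 9.7% and as Slc2a1 from 6.47% to 13.5%. The model with a background term, chosen after seeing the data, gave 9.89%, 11.8% and 15.2%, and 7.49%, 9.36% and 12.8% without its 9 fits beyond 10 on the log2 scale. Deposited values read as natural logs, likewise added, gave 1.08%, 1.35% and 2.16%. The number of probes with an unadjusted p under 0.05 ranged from 3 to 25 at day 3 and from 2 to 19 at day 1 with 1 sample of that day left out. Without both day 3 hearts nearest to day 1, also chosen after seeing the data, the share for Slc2a1 was 5.07%. The cause was not tested. The reading of the direction kept its sign in 3 alternatives. The base at day 3 did not. Natural log minus log2 distance was -0.0076 with TMM scaling and 0.00441 with RLE scaling. It was 0.0426 on the fold change alone and 0.0774 in the model with a background term. Of the 3 genes most like each by ontology terms, the overlap coefficient kept 2 for Cpt1a, 1 for Cd36 and 1 for Slc2a1. Positive-control scaling moved the day 1 median of all probes to 0.13, against -0.01 with TMM scaling.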
